A study of Homo sapiens with 18 samples.

Results

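The genes described here are 32 genes of glycolysis and of the response to low oxygen, listed by name. They comprise 2 glucose transporters, 9 genes of the upper and 6 of the lower glycolytic steps, 3 regulators of glucose flux, 3 genes of oxygen sensing and 9 other targets of the hypoxia-inducible factor (HIF). They were matched to the array's transcript clusters by symbol, and a gene with several clusters was represented by the cluster with the highest mean. Of the 32 genes, 31 were measured, among 19429 annotated rows, and all 31 lay above a filter that left out the 25% of rows with the lowest mean signal. CA9 was not analysed here. PGAM1 was read from a row that also names PGAM4, so its values could belong to either gene.

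The arrays measured bulk RNA from LNCaP and VCaP, 2 androgen-responsive prostate cancer cell lines, of which VCaP carries an androgen-driven ERG fusion. The study asked how androgen-dependent expression changes when CTBP1-AS, an antisense long noncoding RNA at the CTBP1 locus, or PSF, an RNA-binding protein encoded by SFPQ, is depleted by siRNA. LNCaP set 1 held siCTBP1-AS and siControl cells, each given 10 nM R1881, a synthetic androgen, or vehicle. LNCaP set 2 held cells with an siCTBP1-AS marked #2 and siControl cells, each given 1 nM R1881 or vehicle. LNCaP set 3 held siPSF and siControl cells, each given 10 nM R1881 or vehicle. The VCaP set held siCTBP1-AS #2, siPSF and siControl cells, each given 1 nM R1881 or vehicle. All groups had been transfected 48 h earlier and kept for 3 days in charcoal-treated serum, at 2.5% for LNCaP and 5% for VCaP, so the ethanol vehicle arrays are of androgen-deprived, transfected cells. How long the hormone was left on was not given in the sources used here.

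Each combination of set, siRNA and treatment was 1 array, 18 in all. The labels do not say that arrays came from separate cultures, so a p-value here covers no more than the scatter among these arrays, and that scatter may be technical. In bulk RNA, fewer expressing cells and less RNA per cell cannot be told apart. Values are log2 signals as deposited. The set medians were 6.7, 5.74 and 6.8 in LNCaP sets 1, 2 and 3 and 6.25 in VCaP, so differences were taken within a set. A row was called where limma's Benjamini-Hochberg adjusted p over 14571 rows was under 0.05. To check the labels, SFPQ measured 9.89 and 10.47 on the LNCaP siPSF arrays with R1881 and vehicle, against 10.79 and 11.15 on their siControl arrays. In VCaP it measured 9.61 and 9.7 on the siPSF arrays with R1881 and vehicle, against 11.16 and 11.02 on the siControl arrays. Levels of CTBP1-AS RNA were not read, which leaves its knockdown without a direct check. CTBP1, the gene at the same locus, was read as a further check. Its siCTBP1-AS minus siControl difference was -0.24 under vehicle and -0.14 under R1881 in LNCaP set 1. In set 2 it was -0.64 under vehicle and 0.18 under R1881, and in VCaP 0.04 and 0.28. CTBP1 thus showed no common direction across sets. KLK3, the androgen-induced gene for prostate-specific antigen, rose with R1881 by 1.54 in LNCaP (adjusted p = 0.000611) and by 2.09 in VCaP (adjusted p = 0.000565). ERG ranged from 9.01 to 12.11 on the VCaP arrays, against 3.91 to 5.03 on the LNCaP arrays.

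Glycolysis breaks glucose down to pyruvate. Transporters admit glucose, hexokinase traps it inside the cell, phosphofructokinase commits it to the pathway, and the lower steps yield ATP and pyruvate, which lactate dehydrogenase turns to lactate. When oxygen is low, HIF1A escapes hydroxylation by the EGLN enzymes, pairs with ARNT and binds DNA at a short core, ACGTG or GCGTG, in many genes of glycolysis, vessel growth and matrix synthesis. The androgen receptor binds elements built from short sites such as AGAACA, and androgen is known to act on glucose uptake in prostate cancer cells.

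Of the 32 genes, 29 had promoter windows in RefSeq's table (GRCh38.p14), and SLC2A3, VEGFA and BNIP3L did not. The 250 bases before each start site were searched on both strands with overlapping matches kept, so that CACGTG counts once on each strand. ACGTG or GCGTG stood in 32 of the 53 windows of these genes (60.4%), against 43.2% of all 35116 windows. ACGTG alone stood in 20 (37.7%), against 18.5%. AGAACA stood in 3 (5.66%), against 12.4%. A match is a run of letters in a window and not measured binding. The list was chosen as glycolytic genes and HIF targets, so its share of HIF cores is not a result of these arrays. The windows printed here belong to ANKRD37, which rose with R1881 in both lines, to HK2, which rose with R1881 in LNCaP, and to PGK1, which fell with siPSF. All are on the + strand, written 5′ to 3′, with matches to either HIF core in capitals.
ANKRD37, chr4:185396591-185396840: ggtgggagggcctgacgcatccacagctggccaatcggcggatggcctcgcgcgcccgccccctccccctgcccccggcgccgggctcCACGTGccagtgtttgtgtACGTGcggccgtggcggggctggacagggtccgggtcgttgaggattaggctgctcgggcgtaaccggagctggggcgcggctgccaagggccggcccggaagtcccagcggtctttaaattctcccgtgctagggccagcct
HK2, chr2:74834920-74835169: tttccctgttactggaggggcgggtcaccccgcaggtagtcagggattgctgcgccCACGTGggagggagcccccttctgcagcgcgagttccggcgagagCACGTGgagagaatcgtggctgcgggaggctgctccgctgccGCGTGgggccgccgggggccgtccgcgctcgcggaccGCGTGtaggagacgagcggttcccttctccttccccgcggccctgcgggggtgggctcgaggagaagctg
PGK1, chrX:78103998-78104247: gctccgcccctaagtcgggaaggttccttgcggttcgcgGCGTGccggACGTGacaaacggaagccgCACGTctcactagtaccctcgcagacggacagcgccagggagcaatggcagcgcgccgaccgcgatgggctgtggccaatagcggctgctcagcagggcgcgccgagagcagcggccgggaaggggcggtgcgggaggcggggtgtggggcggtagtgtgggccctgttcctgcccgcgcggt
The ANKRD37 window holds 3 matches, the HK2 window 6 and the PGK1 window 3, and none of the 3 windows holds AGAACA. HK2 has another window at chr2:74833877-74834126, also with 3 matches. Of the other members called for R1881 that had windows, SLC2A1 had no match to a HIF core in its 1 window. HK1 and PFKM had a match in 1 of 7 windows each, PDK1 and HIF1A in 1 of 2 each and CA12 in its 1 window.

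R1881 calls included genes at the entry of glycolysis and single HIF targets, and 0 of 6 genes of the lower steps were called. Of 9 genes of the upper steps, 2 rose and 1 fell in LNCaP, and 1 rose and 1 fell in VCaP. Whether the steps differ was not tested. In LNCaP, over 6 pairs of arrays, 6 of 31 genes rose and 2 fell, together 25.8% of the list, where 18.4% of all tested rows were called (9.27% higher and 9.11% lower). In VCaP, over 3 pairs, 4 rose and 2 fell, together 19.4% of the list, where 29.5% of all rows were called (13.9% higher and 15.7% lower). The members' share thus lay above the background in LNCaP and below it in VCaP, and neither share was tested. The median change over the list was 0.03 in LNCaP and 0.07 in VCaP, against -0.01 and 0.01 over all rows. SLC2A3, ANKRD37, HK1 and PFKM were called in both lines, which is 50% of the LNCaP calls and 66.7% of the VCaP calls. The VCaP pairs carry 3 different siRNAs and come from 1 set, so they are not repeats of 1 condition. Nor are the 6 LNCaP pairs, which differ in siRNA, R1881 dose and set. The scatter between pairs, on which the errors and p-values rest, thus includes any difference in response between siRNAs. Through the LNCaP pairs it also includes any difference between doses and sets. All 18 arrays were fitted together, with 1 residual spread per gene for both lines. The VCaP errors and p-values thus also carry the scatter of the LNCaP pairs. The knockdown fits shared 1 spread between lines in the same way.

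**Figure D1:**
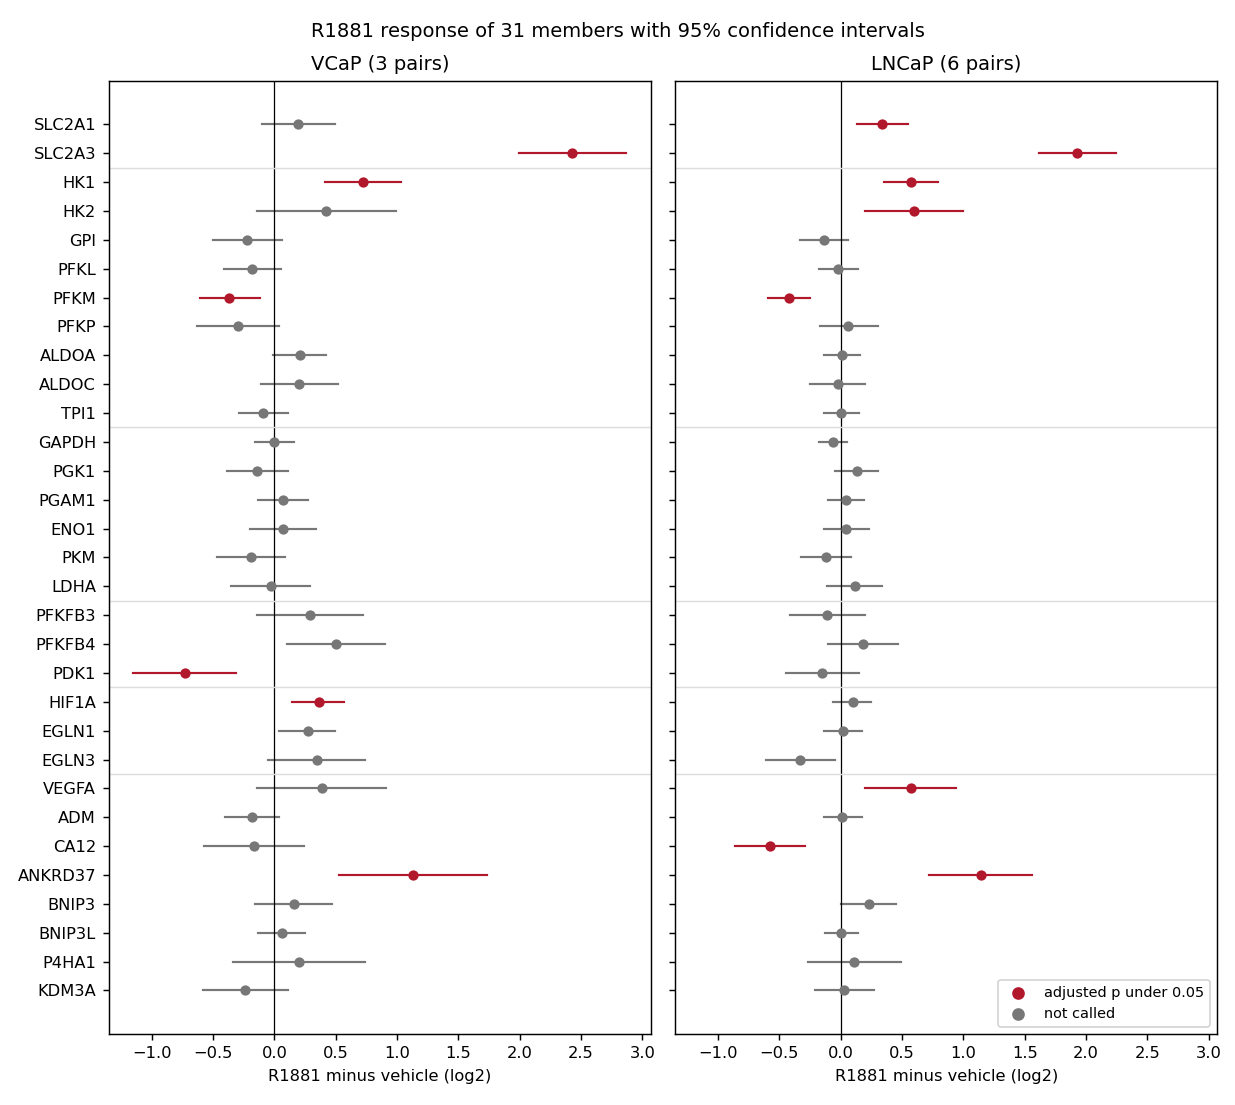
R1881 minus vehicle on the log2 scale for 31 genes, ordered by role, in VCaP (left, 3 pairs) and LNCaP (right, 6 pairs). Points are limma estimates, bars are 95% confidence intervals, and red marks an adjusted p under 0.05. SLC2A3 stands farthest right in both panels, at 2.43 and 1.93, and the lower glycolytic genes, GAPDH to LDHA, lie between -0.19 and 0.13.

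SLC2A3 encodes GLUT3, a high-affinity glucose transporter best known from neurons, and had the largest R1881 response of the list in both lines. In LNCaP set 1 it measured 7.99 with siCTBP1-AS and 7.45 with siControl under R1881, against 6.25 and 5.74 under vehicle. In set 2 it measured 5.42 with siCTBP1-AS and 6.7 with siControl under R1881, against 4.14 and 4.3 under vehicle. In set 3 it measured 8.2 with siPSF and 8.82 with siControl under R1881, against 6.26 and 6.32 under vehicle. R1881 and vehicle arrays did not overlap within any set. In VCaP it measured 8.91, 8.56 and 8.05 with siCTBP1-AS, siPSF and siControl under R1881, against 6.24, 6.01 and 5.98 under vehicle. The rise was 1.93 ± 0.14 in LNCaP (SE, 3.81-fold, adjusted p = 7.89e-06, higher in 6 of 6 pairs). In VCaP it was 2.43 ± 0.20 (SE, 5.38-fold, adjusted p = 1.27e-05, higher in 3 of 3 pairs). SLC2A3 has a near-identical copy, SLC2A14, whose own row measured 4.73 to 6.23 on R1881 arrays and 3.71 to 5.73 on vehicle arrays. Within pairs, SLC2A14 was also higher under R1881 each time, by 0.18 to 1.29. SLC2A14 was named after its values were seen, and how far probes of one gene read the other was not tested.

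SLC2A1 encodes GLUT1, the basal glucose transporter of most cells. In LNCaP set 1 it measured 10.56 with siCTBP1-AS and 11 with siControl under R1881, against 10.59 and 10.32 under vehicle. In set 2 it measured 9.5 with siCTBP1-AS and 10.47 with siControl under R1881, against 9.48 and 9.79 under vehicle. In set 3 it measured 10.32 with siPSF and 10.7 with siControl under R1881, against 10.04 and 10.32 under vehicle. The siCTBP1-AS pairs of sets 1 and 2 were nearly flat and the other 4 LNCaP pairs rose. The rise in LNCaP was 0.34 ± 0.10 (SE, 1.26-fold, adjusted p = 0.0304, higher in 5 of 6 pairs), and the call was lost without set 2 (adjusted p = 0.0714), without set 3 (0.147), with set as the only block (0.0752) and after quantile normalization (0.0585). In VCaP the change was 0.19 ± 0.14 (SE, 95% interval -0.10 to 0.49) and was not called.

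HK1, the hexokinase of most tissues, rose in both lines. Under R1881 it measured 8.04 with siCTBP1-AS and 8.11 with siControl in LNCaP set 1, against 7.72 and 7.85 under vehicle. In set 2 it measured 8.01 with siCTBP1-AS and 8.37 with siControl under R1881, against 7.75 and 7.68 under vehicle. In set 3 it measured 8.69 with siPSF and 8.86 with siControl under R1881, against 7.77 and 7.9 under vehicle. Every R1881 array of LNCaP lay above every vehicle array of LNCaP, and the gap was widest in set 3. In VCaP HK1 measured 9.27, 9.3 and 9.4 with siCTBP1-AS, siPSF and siControl under R1881, against 8.55, 8.58 and 8.67 under vehicle. The rise was 0.57 ± 0.10 in LNCaP (SE, 1.48-fold, adjusted p = 0.00249, 6 of 6 pairs) and 0.72 ± 0.14 in VCaP (SE, 1.65-fold, adjusted p = 0.00312, 3 of 3 pairs).

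HK2, the inducible hexokinase prominent in many tumours, varied more between pairs. In LNCaP set 1 it measured 8.68 with siCTBP1-AS and 9.47 with siControl under R1881, against 9.08 and 8.56 under vehicle. In set 2 it measured 7.53 with siCTBP1-AS and 8.22 with siControl under R1881, against 7.03 and 6.93 under vehicle. In set 3 it measured 8.79 with siPSF and 9.39 with siControl under R1881, against 8.23 and 8.69 under vehicle. The siCTBP1-AS pair of set 1 went the other way from the remaining 5 LNCaP pairs. The LNCaP change was 0.60 ± 0.18 (SE, 1.51-fold, adjusted p = 0.0424), and the call was lost without set 2 (adjusted p = 0.226) or set 3 (0.196). In VCaP HK2 measured 7.52, 7.19 and 7.55 with siCTBP1-AS, siPSF and siControl under R1881, against 6.5, 7.17 and 7.31 under vehicle. That change was 0.42 ± 0.26 (SE, 95% interval -0.14 to 0.99) and was not called.

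PFKM, the muscle-type phosphofructokinase, was the 1 glycolytic enzyme that fell in both lines. In LNCaP it measured 9.35 and 9.66 in set 1, 9.37 and 8.83 in set 2 and 9.77 and 9.99 in set 3 under R1881 (knockdown, then siControl). The matching vehicle arrays measured 9.65 and 9.86, 9.56 and 9.4, and 10.4 and 10.63. All 6 pairs were lower under R1881, by 0.42 ± 0.08 (SE, adjusted p = 0.00344), and the call was lost without set 3 (adjusted p = 0.0595). In VCaP it measured 9.6, 9.32 and 9.69 with siCTBP1-AS, siPSF and siControl under R1881, against 9.84, 9.64 and 10.22 under vehicle. The VCaP change was -0.37 ± 0.11 (SE, adjusted p = 0.0272, lower in 3 of 3 pairs), and the call was lost without any 1 of the 3 pairs (adjusted p = 0.0503 to 0.196) and with set as the only block (0.0965). The other phosphofructokinases, PFKL and PFKP, changed by -0.02 and 0.06 in LNCaP and by -0.18 and -0.30 in VCaP, without a call. The other upper enzymes, GPI, ALDOA, ALDOC and TPI1, had no call either, and changed by -0.14 to 0.01 in LNCaP and by -0.22 to 0.21 in VCaP.

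**Figure D2:**
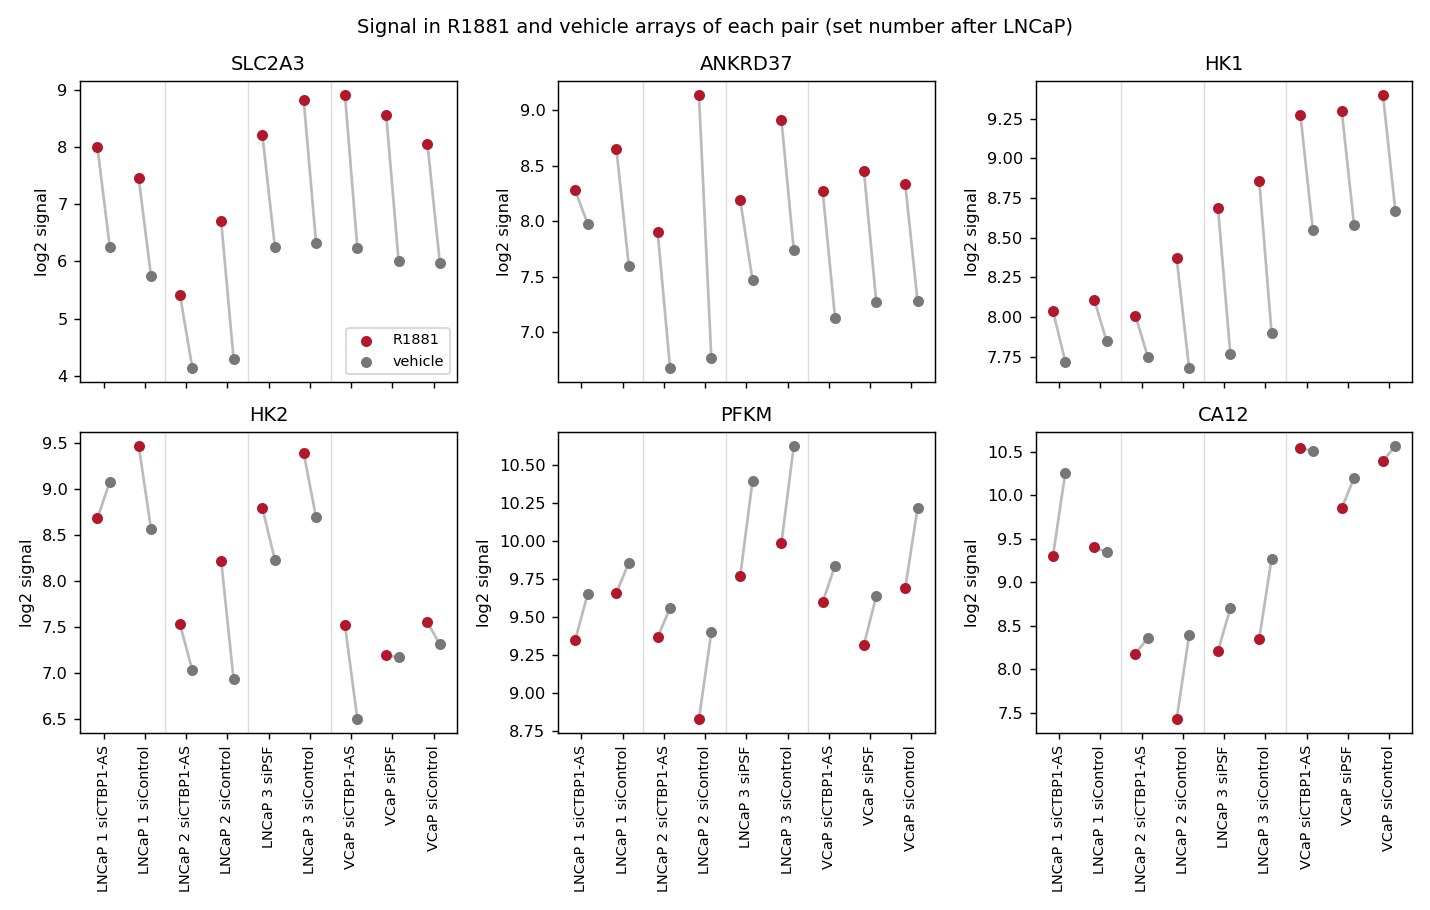
Log2 signal of SLC2A3, ANKRD37, HK1, HK2, PFKM and CA12 on all 18 arrays, as 9 pairs with R1881 (red) left of vehicle (grey), and set numbers after LNCaP. SLC2A3, ANKRD37 and HK1 are higher under R1881 and PFKM lower in all 9 pairs, while HK2 in set 1 with siCTBP1-AS (8.68 against 9.08) and CA12 in set 1 with siControl (9.4 against 9.35) depart from the other LNCaP pairs.

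The lower part of the pathway, from GAPDH to LDHA, showed no call among 6 genes in either line. Over all rows, 18.4% were called in LNCaP and 29.5% in VCaP, so few calls could be looked for among 6 genes. GAPDH, which makes the first NADH of the pathway, changed by -0.06 in LNCaP (95% interval -0.18 to 0.05) and by 0.00 in VCaP (-0.16 to 0.16). LDHA, the lactate-forming dehydrogenase, changed by 0.12 in LNCaP (-0.11 to 0.34) and by -0.03 in VCaP (-0.35 to 0.29). Its LNCaP pairs ranged from -0.19 to 0.62, with 3 higher and 3 lower under R1881. PKM, which encodes pyruvate kinase, changed by -0.12 in LNCaP (-0.32 to 0.08) and by -0.19 in VCaP (-0.47 to 0.09). The other 3, PGK1, PGAM1 and ENO1, changed by 0.04 to 0.13 in LNCaP and by -0.14 to 0.07 in VCaP.

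Among regulators, PDK1, the kinase that holds pyruvate back from the mitochondrion, fell in VCaP. It measured 9.06, 9.1 and 8.82 with siCTBP1-AS, siPSF and siControl under R1881, against 9.56, 9.65 and 9.97 under vehicle. The groups did not overlap, and the siControl pair had the largest gap. The change was -0.73 ± 0.19 (SE, 1.66-fold lower, adjusted p = 0.0142), and without the siControl pair it was -0.53 (adjusted p = 0.146). In LNCaP the change was -0.15 ± 0.14 (SE), with 2 of 6 pairs higher. PFKFB3 and PFKFB4, whose product fructose 2,6-bisphosphate activates phosphofructokinase, had no call. PFKFB3 changed by -0.11 in LNCaP and by 0.29 in VCaP. PFKFB4 changed by 0.18 in LNCaP and by 0.50 in VCaP (95% interval 0.10 to 0.90, adjusted p = 0.0609).

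HIF1A, the oxygen-regulated HIF subunit, rose in VCaP. It measured 11.42, 11.72 and 11.56 with siCTBP1-AS, siPSF and siControl under R1881, against 11.16, 11.31 and 11.16 under vehicle. The rise was 0.36 ± 0.10 (SE, 1.28-fold, adjusted p = 0.0179, 3 of 3 pairs), and the call was lost without the siControl pair (adjusted p = 0.102), without the siPSF pair (0.0838) and with set as the only block (0.114). In LNCaP the change was 0.10 ± 0.07 (SE). EGLN1, the main HIF hydroxylase, changed by 0.02 in LNCaP and by 0.27 in VCaP (adjusted p = 0.0712). EGLN3, a HIF hydroxylase that is itself a HIF target, differed most between the lines. It measured 8.34, 8.58 and 8.42 with siCTBP1-AS, siPSF and siControl under R1881 in VCaP, against 7.87, 8.41 and 8.02 under vehicle. In LNCaP 5 of 6 pairs were lower under R1881, by up to 0.68, and the siControl pair of set 1 was 0.51 higher.

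The R1881 response of EGLN3 in VCaP minus that in LNCaP was 0.68 ± 0.22 (SE, adjusted p = 0.0727), and without LNCaP set 1 it was 0.82 (adjusted p = 0.00657). Set 1 holds the LNCaP pair that went the other way, and no other alternative gave EGLN3 a call. Over the list, limma called 0 of 31 genes for a difference in R1881 response between VCaP and LNCaP, where 11.1% of all rows were called (5.09% higher and 6.05% lower). At an unadjusted p under 0.05 there were 2 members, where 26% of all rows passed, so the members' share was the lower. The LNCaP arrays of sets 1 and 3 had 10 nM R1881 and those of set 2 and VCaP 1 nM. Line and dose are thus partly mixed in this difference, and set and serum (5% in VCaP, 2.5% in LNCaP) go wholly with line.

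ANKRD37, a small ankyrin-repeat protein known as a strong HIF target, was the second-largest response. In LNCaP set 1 it measured 8.28 with siCTBP1-AS and 8.65 with siControl under R1881, against 7.98 and 7.6 under vehicle. In set 2 it measured 7.9 with siCTBP1-AS and 9.14 with siControl under R1881, against 6.68 and 6.77 under vehicle. In set 3 it measured 8.19 with siPSF and 8.91 with siControl under R1881, against 7.47 and 7.74 under vehicle. All pairs rose, and in each LNCaP set the siControl pair rose more than the knockdown pair. In VCaP it measured 8.27, 8.45 and 8.34 with siCTBP1-AS, siPSF and siControl under R1881, against 7.13, 7.27 and 7.28 under vehicle. The rise was 1.14 ± 0.19 in LNCaP (SE, 2.20-fold, adjusted p = 0.00189) and 1.13 ± 0.27 in VCaP (SE, 2.18-fold, adjusted p = 0.00942). The VCaP call was lost without the siControl pair (adjusted p = 0.0527) or the siPSF pair (0.0503).

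VEGFA, the vessel growth factor, rose in LNCaP and CA12, a membrane carbonic anhydrase, fell there. VEGFA rose by 0.57 ± 0.17 (SE, adjusted p = 0.0368, higher in 5 of 6 pairs), with set 3 giving the largest gaps, 11.04 with siPSF and 10.39 with siControl under R1881, against 9.8 and 9.35 under vehicle. Without set 3 the VEGFA change was 0.28 (adjusted p = 0.334), without set 2 it was 0.54 (0.155), and with set as the only block its adjusted p was 0.0527. CA12 in set 3 measured 8.21 with siPSF and 8.35 with siControl under R1881, against 8.7 and 9.27 under vehicle. Its LNCaP change was -0.58 ± 0.13 (SE, adjusted p = 0.0102, lower in 5 of 6 pairs), and the call was lost without set 3 (adjusted p = 0.0953). In VCaP VEGFA changed by 0.39 (95% interval -0.14 to 0.91) and CA12 by -0.17 (-0.57 to 0.24). The other HIF targets, ADM, BNIP3, BNIP3L, P4HA1 and KDM3A, had no call in either line and changed by 0.00 to 0.23 in LNCaP and by -0.24 to 0.20 in VCaP.

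With the 6 LNCaP siControl arrays alone, limma called 0 of 31 genes when sets were not modelled, where 0.261% of all rows were called (0.233% higher and 0.0275% lower). At an unadjusted p under 0.05 there were 2 members, where 2.32% of all rows passed. With the replicate number, which marks the set, as a block, 4 of 31 were called and 732 rows in all, against 38 rows. The 4 were SLC2A3 at 2.21 (adjusted p = 0.00223), HK2 at 0.97 (0.0156), ANKRD37 at 1.53 (0.0257) and SLC2A1 at 0.58 (0.0413).

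Other genes of the same pathways were read from 3 further lists, to be set against the 18.4% of all rows called in LNCaP and the 29.5% called in VCaP. Of 20 tested genes of glucose metabolism, 4 rose and 1 fell in LNCaP, and 4 rose and 4 fell in VCaP. MPC2, a subunit of the mitochondrial pyruvate carrier, rose by 1.37 in LNCaP (adjusted p = 4.86e-06). PFKFB2, which makes the activator of phosphofructokinase, rose by 0.93 in LNCaP and by 1.83 in VCaP, and the glucose transporter gene SLC2A12 by 0.49 and 1.58. ENO2, the neuronal enolase, fell by 0.90 in VCaP. Of 27 tested further HIF targets, 5 rose and 5 fell in LNCaP, and 7 rose and 5 fell in VCaP. In LNCaP the largest changes were NDRG1, an androgen- and hypoxia-induced gene, at 2.19, LOX, a collagen cross-linking enzyme, at 0.93 and KDM4B, a histone demethylase, at 0.71. In VCaP they were IGFBP3, an IGF-binding protein, at -2.00, LOX at 1.48 and CITED2, which competes with HIF for its coactivator, at 1.29. Of 11 HIF subunits and regulators, RBX1 rose while VHL and ARNT fell in LNCaP, by no more than 0.30, and EPAS1 (0.60) and ELOB (0.27) rose in VCaP.

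Most genes of the list differed in the same direction between single arrays of LNCaP set 1. In siControl cells of set 1, 30 of 31 genes were higher under R1881 than under vehicle, with a median of 0.41 against -0.02 over all rows, of which 46.5% were higher. In siCTBP1-AS cells of the same set, 26 of 31 were lower under R1881, with a median of -0.26 against 0.01 over all rows, of which 52.0% were higher. Both differences rest on 4 single arrays, so no test was made and nothing is shown of the siRNA beyond these arrays. P4HA1, a collagen prolyl hydroxylase, measured 10.2 under R1881 and 10.86 under vehicle with siCTBP1-AS, and 10.77 under R1881 and 9.81 under vehicle with siControl. LDHA in set 1 measured 12.84 under R1881 and 13.03 under vehicle with siCTBP1-AS, and 13.08 under R1881 and 12.47 under vehicle with siControl. PFKFB4 measured 7.31 and 7.78 under R1881 and vehicle with siCTBP1-AS, and 7.86 and 7.02 with siControl. In all 3 genes the siControl vehicle array was the lowest of the 4.

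Read as a knockdown difference at each treatment, 27 of 31 genes were lower with siCTBP1-AS than with siControl under R1881 in set 1 (median -0.31), and 27 of 31 were higher under vehicle (median 0.40). In set 2, 22 were lower under R1881 (median -0.31) and 17 under vehicle (median 0.00). With siPSF in LNCaP set 3, 27 were lower under R1881 (median -0.22) and 23 under vehicle (median -0.16). In VCaP the siCTBP1-AS medians were 0.00 under R1881 and -0.09 under vehicle, and the siPSF medians 0.11 and -0.01. Over all rows these medians lay between -0.05 and 0.01. Differences that use the same siControl array share it and are not independent.

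**Figure D3:**
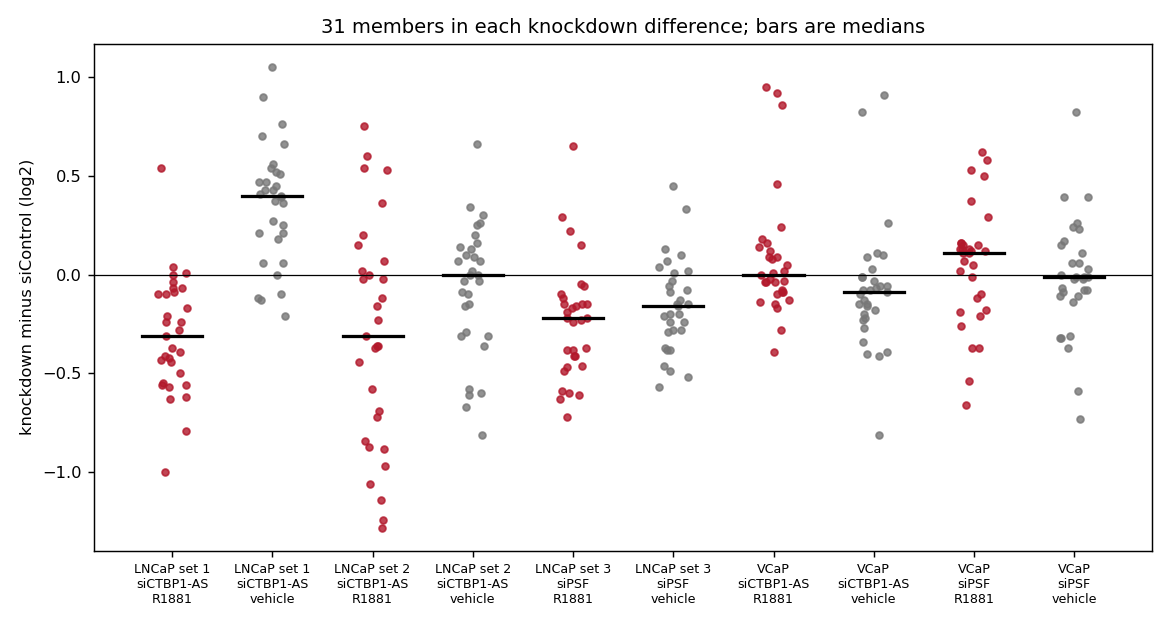
Knockdown minus siControl on the log2 scale for 31 genes (points) in each of 10 differences of 1 array and another, with R1881 in red left of vehicle in grey and black bars at the median. In LNCaP set 1 the median is -0.31 under R1881 and 0.40 under vehicle, and in VCaP all 4 medians lie between -0.09 and 0.11.

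The question whether a knockdown alters the androgen response is the difference of both R1881 responses. For siCTBP1-AS the R1881 response was below that of siControl for 28 of 31 genes in LNCaP set 1 (median -0.64), for 26 in set 2 (median -0.19) and for 5 in VCaP (median 0.10). These 3 sets share no array. Over all rows the medians were 0.03, 0.01 and 0.06. For siPSF it was below siControl for 22 of 31 in LNCaP set 3 (median -0.08) and for 11 in VCaP (median 0.07). Pooled over lines, limma called 0 of 31 genes for either siRNA, as well as 0 of all 14571 rows (0.0%). At an unadjusted p under 0.05 there were 5 of 31 genes for siCTBP1-AS, where 9.81% of all rows passed, and 0 for siPSF, where 5.29% did. The 5 were ANKRD37 at -0.63 (95% interval -1.11 to -0.15), PFKFB4 at -0.60, P4HA1 at -0.78, SLC2A1 at -0.40 and VEGFA at -0.32, with adjusted p of 0.469 to 0.503.

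Averaged over treatments, siCTBP1-AS lowered VEGFA in LNCaP and raised ADM, the gene for the vasodilator adrenomedullin, in VCaP. In LNCaP set 1 VEGFA measured 9.98 under R1881 and 10.24 under vehicle with siCTBP1-AS, against 10.48 and 10.34 with siControl. In set 2 it measured 8.61 and 8.25 with siCTBP1-AS, against 9.75 and 8.85 with siControl. The knockdown array was the lower in all 4 differences, by -0.59 ± 0.15 (SE, adjusted p = 0.0419). It was the 1 call of 31 genes, where 6.4% of all rows were called (2.81% higher and 3.59% lower), and it was lost without set 2 (-0.30, adjusted p = 0.287) and with product terms for R1881 (adjusted p = 0.192).

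In VCaP VEGFA measured 9.71 under R1881 and 9.46 under vehicle with siCTBP1-AS, against 8.79 and 8.55 with siControl. That difference was 0.91 ± 0.21 (SE, adjusted p = 0.109) and was not called. ADM in VCaP measured 8.29 and 8.28 with siCTBP1-AS, against 7.34 and 7.46 with siControl. The groups did not overlap, and ADM was the 1 call of 31 at 0.88 ± 0.14 (SE, 1.84-fold, adjusted p = 0.0378), where 0.371% of all rows were called (0.192% higher and 0.178% lower). Against the same 2 siControl arrays, ADM was also higher with siPSF, by 0.53 under R1881 and 0.82 under vehicle. Both genes differed between the lines, where 0.316% of all rows were called (0.151% higher and 0.165% lower). The siCTBP1-AS effect in VCaP minus that in LNCaP was 1.5 ± 0.25 for VEGFA (adjusted p = 0.0431) and 1.06 ± 0.17 for ADM (adjusted p = 0.0398). VCaP had siCTBP1-AS #2 and 1 nM R1881 in 5% serum, and LNCaP pooled both siRNA marks and both doses in 2.5% serum, so line cannot be told apart from serum and set and is partly mixed with siRNA mark and dose. With R1881 arrays or vehicle arrays alone these 3 calls were lost (adjusted p = 1), in fits of fewer arrays.

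**Figure D4:**
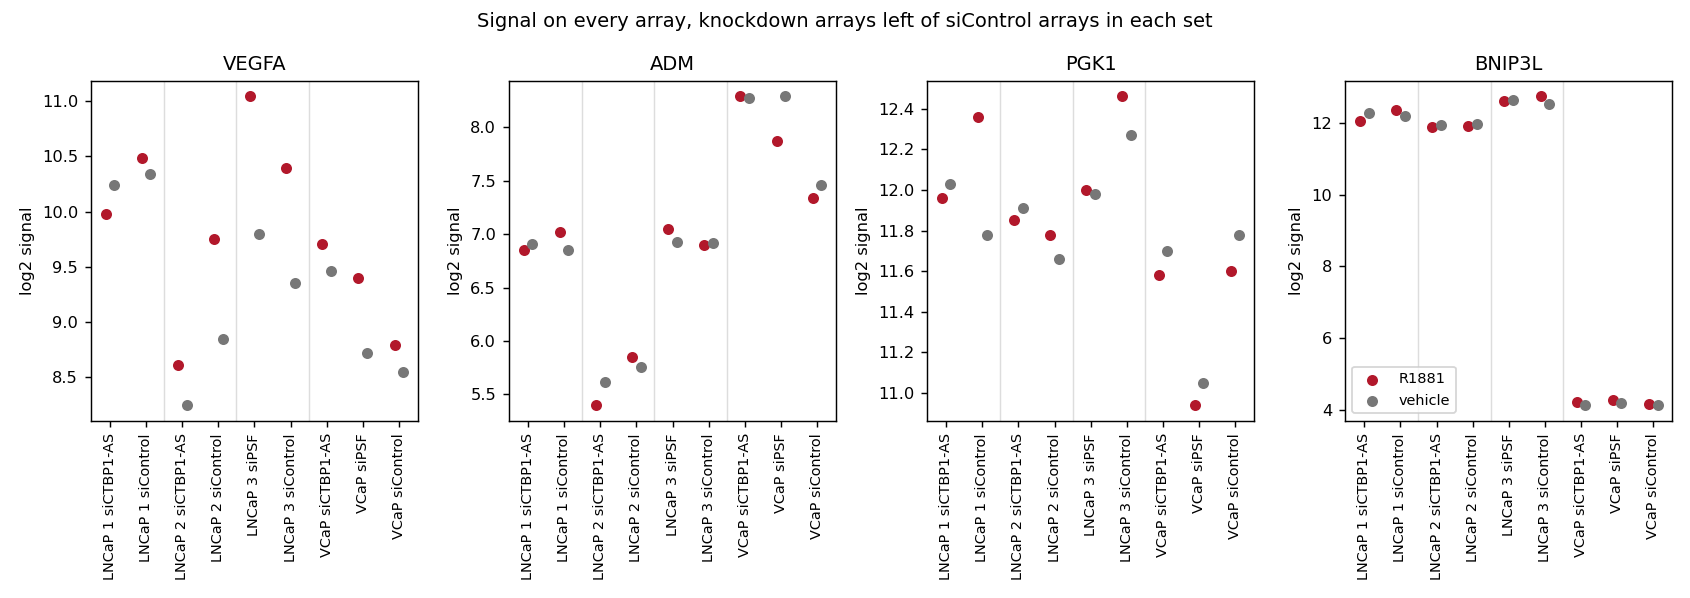
Log2 signal of VEGFA, ADM, PGK1 and BNIP3L on all 18 arrays, R1881 in red and vehicle in grey, knockdown arrays left of siControl arrays within each set. VEGFA and ADM are higher with siCTBP1-AS than with siControl in VCaP, PGK1 is lowest on the VCaP siPSF arrays (10.94 and 11.05), and BNIP3L lies near 4 in VCaP alone.

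The LNCaP sets differed in the siCTBP1-AS effect, so each was fitted apart, a choice made after seeing the data. The siRNA mark, the R1881 dose and the set differ together between sets 1 and 2 and cannot be told apart. In set 1, limma called 0 of 31 genes, where 4.64% of all rows were called (2.43% higher and 2.21% lower). At an unadjusted p under 0.05 there were 0 members, where 17.9% of all rows passed. The set 1 term averages the R1881 and vehicle differences, whose member medians had opposite signs (-0.31 under R1881 and 0.40 under vehicle). The lack of calls in set 1 thus does not show that the members were unchanged there. In set 2, 7 fell and 1 rose, 25.8% of the list, where 22.3% of all rows were called (12.6% lower and 9.74% higher). The 7 were PGAM1 (-0.94), VEGFA (-0.87), PDK1 (-0.75), HIF1A (-0.74), PFKP (-0.65), SLC2A1 (-0.64) and GAPDH (-0.47). ALDOC, the brain-type aldolase, rose by 0.59. With no filter on low values the calls of PFKP, ALDOC and PDK1 were lost (adjusted p = 0.0511, 0.0541 and 0.0597). After quantile normalization those of SLC2A1, PDK1 and PFKP were lost (adjusted p = 0.0582, 0.0712 and 0.0766).

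In set 2 PGAM1, phosphoglycerate mutase, measured 10.35 under R1881 and 10.45 under vehicle with siCTBP1-AS, against 11.41 and 11.26 with siControl. In set 1 it measured 12.36 and 12.44 with siCTBP1-AS, against 12.4 and 12.07 with siControl. All 5 clusters whose annotation includes PGAM1 gave -0.80 to -0.95 in set 2 and 0.17 to 0.18 in set 1. How far these clusters read the same transcripts was not tested, so they are not separate measurements of PGAM1. HIF1A in set 2 measured 9.9 and 10.09 with siCTBP1-AS, against 10.77 and 10.7 with siControl. In set 1 HIF1A measured 10.95 and 10.78 with siCTBP1-AS, against 10.91 and 10.9 with siControl. Neither gene's groups overlapped in set 2, and both overlapped in set 1.

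The effect in set 2 minus that in set 1 was called for 4 of 31 genes (12.9%), where 11.5% of all rows were called (5.07% higher and 6.47% lower). It was -1.10 ± 0.17 for PGAM1 (SE, adjusted p = 0.00458), -0.70 ± 0.15 for HIF1A (0.0177), -1.25 ± 0.34 for SLC2A3 (0.0407) and 0.60 ± 0.17 for PFKM (0.0424). With no filter on low values the calls of SLC2A3 (adjusted p = 0.0511) and PFKM (0.059) were lost. The counts of the other lists stand against 22.3% of all rows called in set 2, 4.64% in set 1 and 6.4% over both LNCaP sets. Of 20 further genes of glucose metabolism, 4 rose and 3 fell in set 2, and 0 rose and 1, LDHB, fell in set 1. MPC1, the other subunit of the pyruvate carrier, fell by 0.95 and SLC2A12 by 1.02 in set 2, and PDK3, a pyruvate dehydrogenase kinase, rose by 0.86. HMOX1, the haem-degrading enzyme, rose by 1.27 with siCTBP1-AS in LNCaP (adjusted p = 0.00234) and STC2 fell by 0.95 (adjusted p = 0.0187), the 2 calls among 27 further HIF targets there. Of the same 27, IGFBP3 and HMOX1 rose and DDIT4 fell in set 1, and 1 rose and 3 fell in set 2, led by HMOX1 (1.22), STC2 (-0.88) and GYS1 (-0.59). Of 11 HIF subunits and regulators, EPAS1 and RBX1 rose in set 1, ELOC rose and SIAH2 fell in set 2, and SIAH2 was the 1 call over both LNCaP sets.

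**Figure D5:**
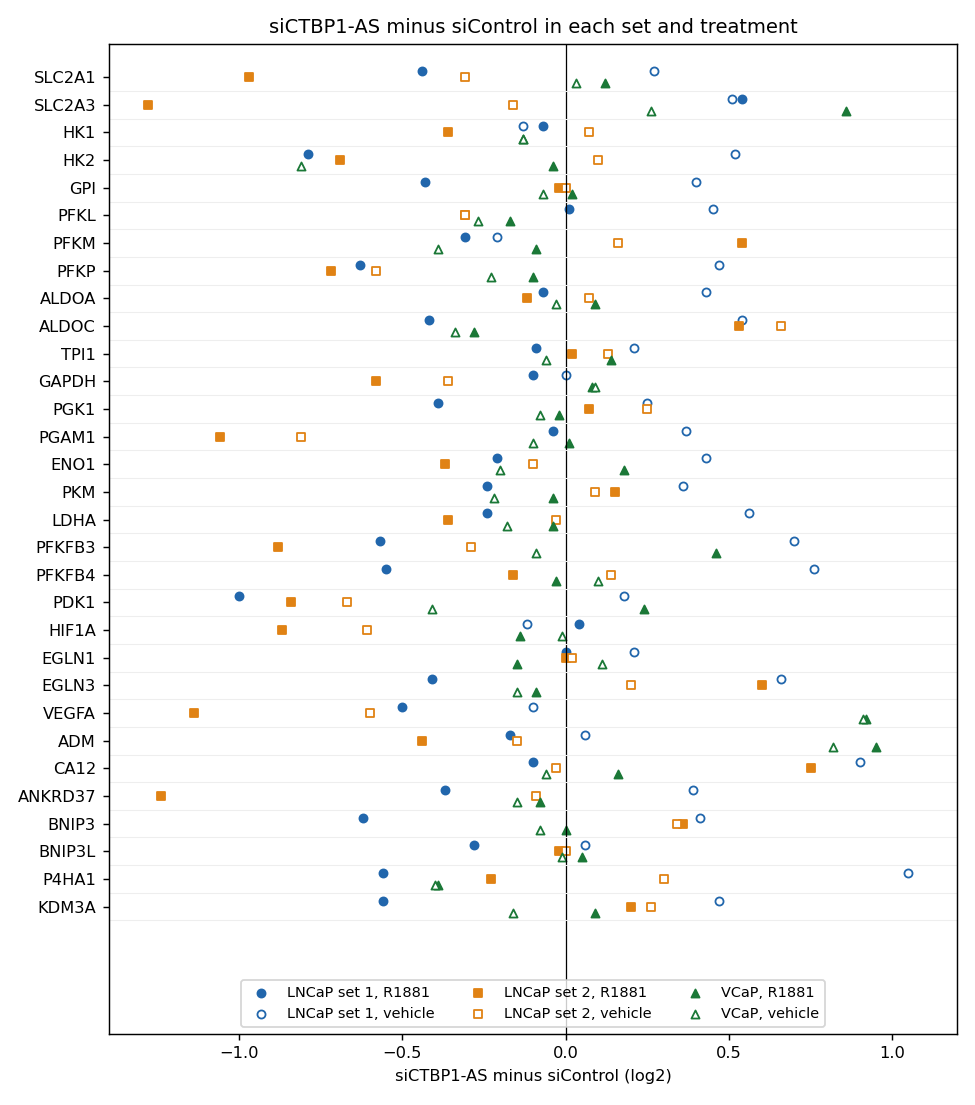
siCTBP1-AS minus siControl on the log2 scale for 31 genes, with LNCaP set 1 as circles, set 2 as squares and VCaP as triangles, R1881 filled and vehicle open. In set 1 the filled circles lie mostly left of 0 and the open ones right of it, while in set 2 PGAM1, HIF1A and VEGFA lie left of 0 under both treatments.

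CD68, listed as a leukocyte marker and also present in lysosomes of other cells, rose with siCTBP1-AS by 1.63 in LNCaP set 1, with a call. The change in CD68 was 0.32 in set 2 and 0.25 in VCaP, without a call. It measured 10.61 to 10.65 in set 1 with siCTBP1-AS, against 8.96 to 9.04 with siControl, and 8.2 to 8.42 in set 2, against 7.56 to 8.41. Of 5 leukocyte markers 4 were measured and 1, CD68, passed the filter. The mean log2 level of the 4 ranged from 4.47 to 6.68 on LNCaP siCTBP1-AS arrays, against 4.46 to 5.59 on siControl arrays. PTPRC, the defining leukocyte marker, was at 2.88 to 3.58 on LNCaP siCTBP1-AS arrays, against 2.95 to 3.7 on siControl arrays. Its part in the siCTBP1-AS results was not tested.

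siPSF changed 1 gene of the list, PGK1, the first ATP-forming enzyme of the pathway. In LNCaP set 3 it measured 12 under R1881 and 11.98 under vehicle with siPSF, against 12.46 and 12.27 with siControl. In VCaP it measured 10.94 and 11.05 with siPSF, against 11.6 and 11.78 with siControl. The knockdown arrays lay below their siControl arrays in both lines. The change over both lines was -0.54 ± 0.11 (SE, 1.45-fold lower, adjusted p = 0.0293, lower in 4 of 4 differences), where 2.74% of all rows were called (0.576% higher and 2.16% lower). The call was lost without VCaP siPSF (-0.38, adjusted p = 0.343) and without LNCaP set 3 (-0.70, adjusted p = 0.0764), as well as with R1881 arrays alone (-0.56, adjusted p = 1) and with vehicle arrays alone (-0.51, adjusted p = 0.879). ADM changed by 0.38 (95% interval 0.16 to 0.60, adjusted p = 0.0748) and VEGFA by 0.47 (0.15 to 0.80, adjusted p = 0.124). Of 27 further HIF targets 3 fell and 0 rose: GBE1, the glycogen branching enzyme, by 0.60, AK4 by 0.51 and KDM4C by 0.42. For the siPSF effect in VCaP minus that in LNCaP, limma called 0 of 31, where 0.721% of all rows were called (0.46% higher and 0.261% lower). At an unadjusted p under 0.05 there were 2 members, ADM and LDHA, where 12.3% of all rows passed.

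The levels of a few genes did not overlap between the lines, as was also so for many rows outside the list. BNIP3L, a mitochondrial receptor for mitophagy, measured 4.14 to 4.28 (median 4.19) on the 6 VCaP arrays, against 11.88 to 12.73 (median 12.23) on the 12 LNCaP arrays. With each array centred on its own median, the median in VCaP was 7.99 below that in LNCaP, whereas that of its paralog BNIP3 was 0.63 below. ALDOC measured 8.04 to 8.64 in VCaP, against 9.74 to 10.97 in LNCaP, and ALDOA, the muscle-type aldolase, 8.58 to 8.84 against 9.19 to 10.92. ADM was the reverse, at 7.34 to 8.29 in VCaP, against 5.4 to 7.05 in LNCaP. As deposited, 1 of 31 genes (3.23%) lay higher on every VCaP array than on every LNCaP array, where 8.38% of all rows did. On that scale 3 genes (9.68%) lay lower, where 9.5% of all rows did. Centred arrays gave 1 higher (3.23%) and 5 lower (16.1%), where 12.5% and 13.7% of all rows did. The list's lower shares were thus near those of all rows, and its higher shares were below them. The sets may have been scaled apart and each line's arrays share their set, so these levels are given with no test. BNIP3L passed the filter through its LNCaP arrays, and its VCaP differences were read near the bottom of the scale.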

How the data were processed

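The authors deposited log2 signals. The submitters' processing notes name RMA and version 1.1.1 of Affymetrix Expression Console. How arrays were grouped for RMA and the genome build are not given in the sources used here. Of 33297 clusters, 21214 had a gene in the platform annotation. Rows with the same annotation were reduced to the highest mean, giving 19429, and the 25% lowest by mean were left out. limma 3.58.1 in R 4.3.3 (lmFit, eBayes) was fitted to all remaining rows, with each set and siRNA pair as a block for R1881 (9 pairs) and each set and treatment as a block for knockdown (8 blocks). The script was tested on simulated data. The replicate numbers of the LNCaP siControl arrays mark the sets. Same-numbered arrays deviated together from their treatment means (r of 0.78, 0.84 and 0.7), and others did not (-0.64 to -0.09). With means of 3 arrays and sets of unlike scale, these values can show a shared set but no closer pairing. The members, the other gene lists and the comparisons were chosen with earlier results of these data known. All called members are named. Where the text describes the other lists, it gives counts and, of the called genes, those with the 3 largest changes. The separate siCTBP1-AS terms for LNCaP sets 1 and 2 were added after seeing the data. Intervals are 95% confidence intervals from the moderated fit, not adjusted for the number of rows. The number of arrays limits the precision.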

Additional observations from a re-analysis of the deposited data

Results flagged for a closer look

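The siCTBP1-AS effect differed between the cell lines for 2 of 31 genes (6.45%) by the test of the difference itself, where 0.316% of all rows were called. For VEGFA it was 1.5 higher in VCaP than in LNCaP, and for ADM it was 1.06 higher. Both calls were lost with R1881 arrays alone and with vehicle arrays alone, in fits of fewer arrays. Line cannot be told apart from serum and set here, and is partly mixed with siRNA mark and R1881 dose. Between the LNCaP sets, the effect in set 2 minus that in set 1 was called for 4 of 31 genes (12.9%), where 11.5% of all rows were called. It was 0.6 for PFKM, -1.1 for PGAM1, -1.25 for SLC2A3 and -0.7 for HIF1A. The 2 sets differ in the siRNA mark, the R1881 dose and the set, which cannot be told apart. The PFKM and SLC2A3 calls were lost with no filter on low values.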

How the results depend on the processing

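No member changed direction with a call under any alternative run. With the replicate block, which pairs the LNCaP siControl arrays by set, 4 members and 732 rows were called in place of 0 and 38. Those 38 rows became 75 after quantile normalization, 97 with a mean-variance trend and 0 to 25 without 1 replicate. Leaving out 1 set or pair gave 3 to 9 members for R1881 in LNCaP (1172 to 2477 rows, against 2679), 2 to 5 in VCaP (2139 to 3173, against 4304) and 0 to 1 for their difference (573 to 1538, against 1623). For siCTBP1-AS it gave 0 to 10 members in LNCaP (818 to 3080 rows, against 933) and 2 to 6 for VCaP minus LNCaP (296 to 1542, against 46), and for siPSF in both lines 0 members (95 to 192 rows, against 399). Leaving out all R1881 arrays or all vehicle arrays, so that few arrays remained, gave 0 members and 0 rows for siCTBP1-AS in VCaP (54 rows in full), for its line difference, for siPSF in both lines and for the siPSF line difference (105 rows in full). The member counts of LNCaP fell to 5 without set 2 and to 3 without set 3 for R1881, and rose to 10 without set 1 for siCTBP1-AS, a fit of fewer arrays that then rests on set 2. Product terms gave 0 members and 124 rows for siCTBP1-AS in LNCaP, and 200 rows for siPSF. Quantile normalization gave 35 rows for siCTBP1-AS in VCaP and 1091 rows, against 676, in set 1. No filter on low values gave 5 members, against 8, for set 2 and 2, against 4, for set 2 minus set 1. Where no other cause is named, the cause was not tested. SLC2A3 and HK1 kept their R1881 calls in both lines, and ANKRD37 in LNCaP, under all 9 alternatives each. Quantile normalization, the trend and counting only clusters with 1 symbol changed no other member count by more than 1.5 times.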
